A study of Mus musculus with 23 samples.

Results

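Denervated muscle of mice labelled NRF1-PAX4 double KD was set against denervated muscle labelled WT con. The members are the 3 double KD libraries, numbered 1 to 3, and the WT con libraries 2 and 3. These are 5 of the 23 libraries that the labels of the series list, chosen by their group labels, and all 15624 genes of their table were used. WT con library 1 was not analysed here. The muscle of all 5 libraries had been denervated for 10 d; denervation means that the muscle had lost its nerve supply. The labels give the genotype of the double KD mice as NRF1PAL-PAX4 double KD and that of the controls as WT. They give no strain, age, sex, named muscle or promoter, and they tell neither how a knockdown was made nor whether different libraries are different animals. A p-value here thus reflects how much the libraries vary, some of which may be technical variation. For comparison, 3 libraries labelled NRF1 KD (genotype NRF1PAL KD, also denervated for 10 d) came from the same table. A first set of 9 libraries, with 3 each of innervated WT, 10 d denervated WT and 10 d denervated PAX4 KO muscle, was counted separately and shares no control with it.

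The proteasome is the protease that breaks down proteins tagged with ubiquitin. Its barrel-shaped 20S core holds the proteolytic sites, and the 19S regulatory particle, made of an ATPase base and a lid, binds, unfolds and de-ubiquitinates the substrates. In muscle that has lost its nerve, ubiquitin ligases and proteasome subunits take part in the loss of myofibrillar protein, and fibres turn on again genes that innervation keeps low, such as fetal acetylcholine receptor subunits and myogenic factors. NRF1, also called alpha-PAL, is a transcription factor best known for genes of mitochondrial function and is distinct from NFE2L1, a regulator of proteasome genes that shares its short name. PAX4 is a paired-box transcription factor known from pancreatic endocrine cells.

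Reads recovered from the deposited values came to 23740769 to 30165765 per library over the 8 libraries of the table. Nrf1 stood at 488 and 444 normalised counts (reads divided by the library's size factor) in WT con and at 449.5, 427 and 454 in double KD. The groups overlapped, and the log2 fold change of -0.07 ± 0.12 (SE) did not pass the test (adjusted p = 0.784). Pax4 was not among the genes of the table. Neither targeted gene therefore checked the labels, and the groups are called by their labels here. Of 8 markers of the muscle fibre 0 passed by limma (0 also at an unadjusted p under 0.05), and their summed level was 1732790 and 1757430 normalised counts in WT con and 1871563 to 2094667 in double KD. The chi-square between libraries of a group was 22.2 to 37.4 per degree of freedom, so none was the same library sequenced again. Whether libraries came from different animals cannot be told from it. The libraries also differed in ways that their labels do not give: 13 genes lay at 20 or more normalised counts in WT con 3 and in all 3 double KD libraries and at least 10 times lower in WT con 2 and in all 3 NRF1 KD libraries. One of them, the pseudogene Rps15a-ps8, stood at 1.09 and 871 in WT con 2 and 3 and at 729.8, 834 and 1064 in double KD.

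Against WT con, 373 of 15624 genes were higher in double KD (2.39%) and 265 were lower (1.70%), by limma at a Benjamini-Hochberg adjusted p under 0.05, which is the call used throughout. A further measure of the background is that 2830 genes (18.1%) lay higher in every double KD library than in either WT con library, and 2744 (17.6%) lower. An unadjusted p under 0.05 was found for 3350 genes. The shares of 2.39% and 1.70% are the background for every count of list members called below. In all 638 called genes the libraries of double KD and WT con did not overlap, so a gap between them adds nothing to a call. Of the 638 called genes, 209 rose (1.34% of all genes) and 45 fell (0.288%) by at least 1 on the log2 scale. At the same threshold the authors' deposited table gave 785 rises and 548 falls (8.53% in all), and 636 of the 638 genes called here were called there in the same direction. Leaving out 1 library moved the counts. Without WT con 2 they were 46 higher and 40 lower, and without double KD 2 they were 81 and 60. Without double KD 3 there were 238 higher, without NRF1 KD 2 there were 209 higher and 175 lower, and without NRF1 KD 3 there were 224 higher. Of 86 genes that met the naming rule and were called, 20 were still called without WT con 2 and 34 without double KD 2. None of the 86 changed direction in any alternative. Because their double KD and WT con libraries did not overlap, leaving out a library could not turn them, so this adds no support. Log2 fold changes here are of the normalised count plus 1, with their SE, which understates changes of low genes.

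**Figure D1:**
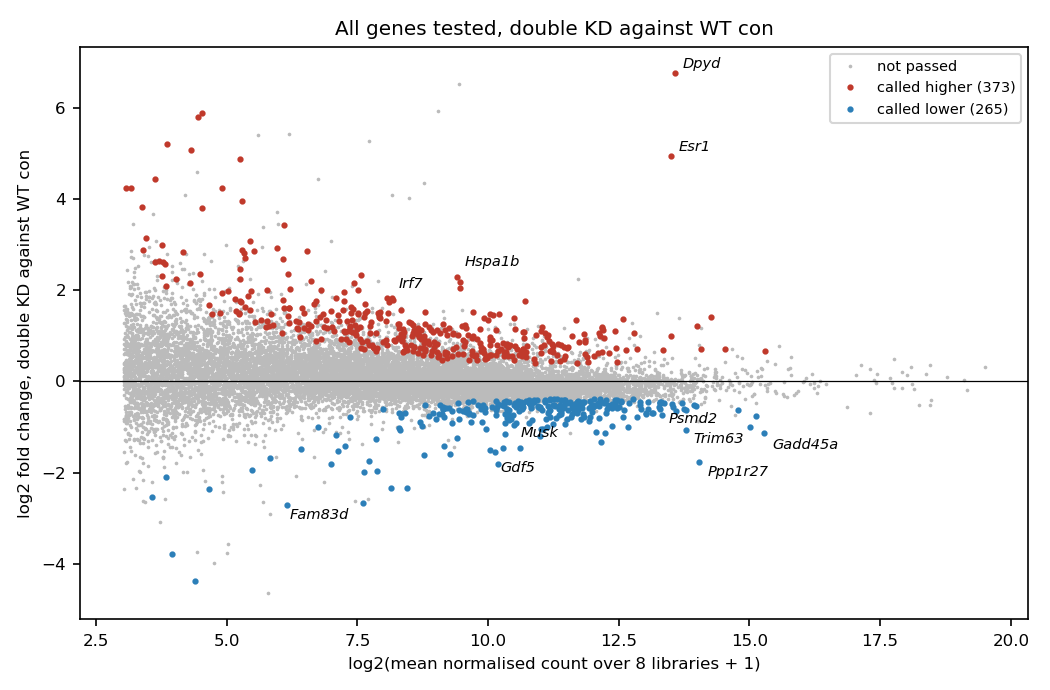
Log2 fold change of double KD against WT con (vertical axis) against the log2 of the mean normalised count plus 1 over the 8 libraries (horizontal axis), 1 point per gene of 15624. Red points are the 373 genes called higher, blue points the 265 called lower; Dpyd (6.76) and Esr1 (4.94) have the highest values among abundant called genes (mean of 100 or more).

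Of the 33 proteasome genes of the 20S core, base and lid, 7 fell in double KD, 0 rose and 26 did not pass, and 25 had an unadjusted p under 0.05. Their median log2 fold change was -0.32, beside 0.02 over all genes tested, and 32 of the 33 values were below 0. In 29 of 33 every double KD library lay below both WT con libraries, beside 17.6% of all genes. By subcomplex, 5 of 10 genes were called in the base (median -0.42), 1 of 14 in the 20S core (-0.29) and 1 of 9 in the lid (-0.27). Of 7 assembly chaperones, 0 were called and 1 had an unadjusted p under 0.05 (-0.04). The median difference from the WT con mean was -0.37 in double KD 1, -0.38 in double KD 2 and -0.18 in double KD 3, so library 3 lay nearest to the controls. Of these 7 genes none was still called without WT con 2, WT con 3 or double KD 2, 1 (Adrm1) was without double KD 1, and 3 were without NRF1 KD 2. By the authors' deposited table, an adjusted p under 0.05 with a lower value was found for 13 of the 33 genes.

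Before the values, the sequence upstream of 3 of the 33 proteasome genes is shown, because alpha-PAL and PAX4 bind DNA and the data bear on genes that may carry such motifs. Of the 3, Psmc4 and Adrm1 were called lower in double KD and Psma2 was not. Each run is the 250 bases before the annotated start, read 5′ to 3′ on the gene's strand from RefSeq on GRCm38.p6, with the motif found in capitals. The palindrome of alpha-PAL, which is GCGCA followed at once by its reverse complement, is marked in Psma2 (chr13:14612992-14613241, plus strand). TGCGCA, a half-site of the same factor that shares GCGCA with it, is marked in Psmc4 (chr7:28050093-28050342, minus strand). TGACNNNGC, the antioxidant response element, is marked in Adrm1 (chr2:180171338-180171587, plus strand).
Psma2: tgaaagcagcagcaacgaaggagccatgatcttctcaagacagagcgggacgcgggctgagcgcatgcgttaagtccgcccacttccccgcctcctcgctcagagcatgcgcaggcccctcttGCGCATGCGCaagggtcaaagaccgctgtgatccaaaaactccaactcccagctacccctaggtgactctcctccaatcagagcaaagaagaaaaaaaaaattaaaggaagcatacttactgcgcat
Psmc4: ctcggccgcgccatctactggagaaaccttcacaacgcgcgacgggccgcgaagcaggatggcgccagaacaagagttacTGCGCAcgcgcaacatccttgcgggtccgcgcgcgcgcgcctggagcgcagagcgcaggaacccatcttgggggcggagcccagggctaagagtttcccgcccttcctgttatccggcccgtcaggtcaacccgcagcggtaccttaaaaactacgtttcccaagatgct
Adrm1: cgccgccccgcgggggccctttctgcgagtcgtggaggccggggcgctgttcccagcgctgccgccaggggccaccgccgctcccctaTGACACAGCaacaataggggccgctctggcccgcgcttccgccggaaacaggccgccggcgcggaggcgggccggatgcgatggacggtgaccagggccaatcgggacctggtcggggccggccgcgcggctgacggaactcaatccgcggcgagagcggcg
Of the 33 proteasome genes, 27 had a promoter in the table of 250 bases before to 50 after the start. On either strand, the alpha-PAL palindrome was found in 1 of the 27, beside 2.06% of the 11474 tested genes with a promoter, TGCGCA (which can overlap it) in 5 of 27 beside 14.6%, and TGACNNNGC in 6 of 27 beside 16.8%. The homeodomain core TAATTA was found in 0 of 27, beside 3.55%. Among all called genes, TGCGCA was found in 37 of 207 promoters of lower genes (17.9%) and 16 of 267 of higher genes (5.99%). The palindrome was found in 4 of 207 (1.93%) and 0 of 267. TGACNNNGC was found in 17.9% and 13.9%, and TAATTA in 3.86% and 3.75%. Over all 32851 promoters of the table the shares were 0.971% for the palindrome, 7.76% for TGCGCA, 12.4% for TGACNNNGC and 5.29% for TAATTA. A match describes these letters only.

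In the ATPase base, Psmd2, a scaffold that docks ubiquitin carriers, stood at 13190.2 and 12526 normalised counts in WT con and at 8325, 8228 and 9823 in double KD. All 3 double KD libraries lay below both controls, with library 3 the highest of them, and the log2 fold change was -0.55 ± 0.12 (adjusted p = 0.033). Psmc4, an ATPase of the ring, stood at 6165 and 6027 in WT con and at 4418, 4658 and 4714 in double KD. Here the libraries of each group lay close together and apart from the other group (-0.41 ± 0.09, adjusted p = 0.0316). The scaffold Psmd1 fell by 0.46 (adjusted p = 0.0361), and the ubiquitin receptors Psmd4 and Adrm1 by 0.45 and 0.43 (adjusted p = 0.0469 and 0.0488). The ATPase Psmc2 stood at 9682 and 9924 in WT con and at 7709, 6786 and 7229 in double KD. These values did not overlap either, but the log2 fold change of -0.44 ± 0.11 missed the threshold (adjusted p = 0.0568).

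In the 20S core, Psmb4, a structural beta subunit, stood at 13538 and 11982 in WT con and at 8989, 8989 and 9718 in double KD. It was the 1 core gene called (-0.47 ± 0.11, adjusted p = 0.0379). The catalytic subunit Psmb5 had a numerically larger difference of -0.52 ± 0.19, but its WT con libraries stood far apart (3483 and 2075) and overlapped double KD (1732, 1837 and 2082; adjusted p = 0.15). In the lid, Psmd7 stood at 9918 and 9616 in WT con and at 7103, 6744 and 7626 in double KD, and fell by 0.45 (adjusted p = 0.0366). Psmd14, the lid's de-ubiquitinase, had a difference of -0.27 ± 0.10 (adjusted p = 0.159). Sem1, a small protein of the lid, was the 1 gene with a value above 0 (0.12 ± 0.11). Of the immunoproteasome subunits and activators 0 of 10 passed (2 at an unadjusted p under 0.05, 0 by DESeq2), and the interferon-inducible Psmb8 was at 0.36 ± 0.15 (adjusted p = 0.213). Of 12 genes that regulate proteasome transcription, Nrf1 among them, 0 passed (1 at an unadjusted p under 0.05, 0 by DESeq2), and Nfe2l1 was at -0.08 ± 0.10 (adjusted p = 0.718).

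**Figure D2:**
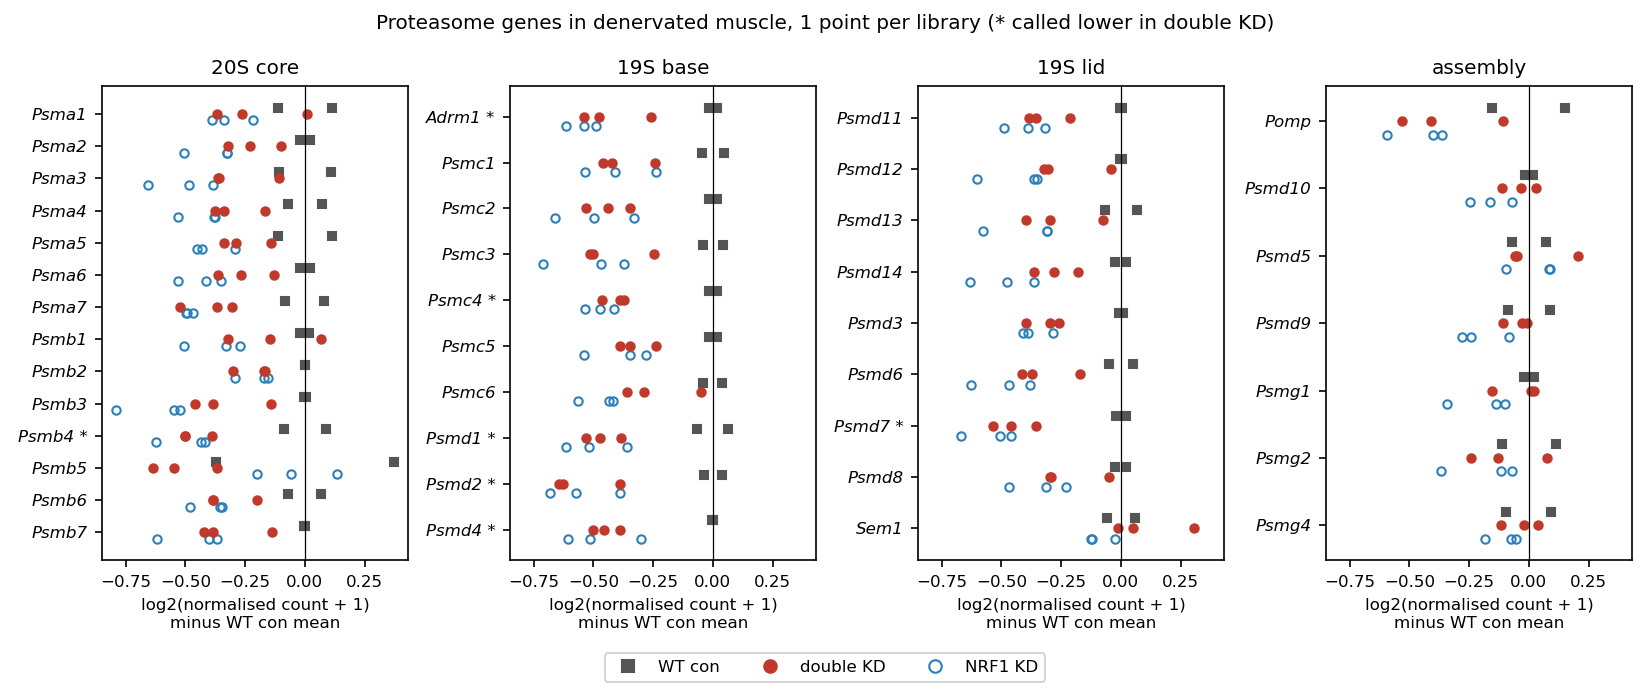
Log2 of the normalised count plus 1, minus the WT con mean (horizontal axis), for each proteasome gene (rows) of the 20S core, 19S base, 19S lid and assembly chaperones, 1 point per library. Red points are double KD, open blue points NRF1 KD and grey squares WT con; all red points of the base lie left of both controls, and an asterisk marks the 7 genes called lower.

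Among ubiquitin ligases, Trim63 and Fbxo32, which mark atrophying muscle, fell in double KD. Trim63, which encodes MuRF1, a ligase for myosin and other thick-filament proteins (ENSMUSG00000028834, chromosome 4, 134315120 to 134329629, GRCm38), stood at 18335 and 25220.3 normalised counts in WT con and at 12154, 8895 and 10272 in double KD. No double KD library reached the controls, although the controls were themselves uneven. The log2 fold change was -1.05 ± 0.16 (adjusted p = 0.00952). Fbxo32, which encodes atrogin-1, stood at 18095 and 16568 in WT con and at 11732, 10129 and 12237 in double KD, again without overlap (-0.61 ± 0.12, adjusted p = 0.024). Of 17 ligases of the list 3 fell, the third being Fbxo31 (-0.40 ± 0.09, adjusted p = 0.0419), and 0 rose, with a median of -0.12. Nedd4, another ligase studied in denervation, stood at 13831 and 13409 in WT con and at 12155, 14786 and 14658 in double KD. Its ranges overlapped (0.02 ± 0.12, adjusted p = 0.944). Trim63 was still called with any 1 library left out, Fbxo32 was not called without WT con 2 or double KD 2, and Fbxo31 was not called without any 1 of the 8 libraries.

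Of 17 genes of p97, the ATPase that pulls ubiquitinated proteins out of larger assemblies, and its cofactors, 1 fell. This was Nploc4, at 3326 and 3719.7 in WT con and 2694, 2586 and 2646 in double KD (-0.41 ± 0.09, adjusted p = 0.0393). The call was lost when any 1 of the libraries was left out, NRF1 KD 1 excepted. Vcp, the gene of p97, stood at 10097 and 8546 and at 6895, 7306 and 8383, and its log2 fold change of -0.31 ± 0.12 did not pass (adjusted p = 0.185). The list's median was -0.18. Of 23 autophagy and lysosome genes 3 fell, with a median of -0.17: Ulk1, the kinase that starts autophagy (1612 and 1867 in WT con, 1176, 1174 and 1065 in double KD; -0.61 ± 0.11, adjusted p = 0.0181), and the conjugation factors Atg12 (-0.45, adjusted p = 0.0473) and Gabarapl1 (-0.39, adjusted p = 0.0446). Without WT con 2, WT con 3 or double KD 2 none of the 3 was called, and without any 1 NRF1 KD library Ulk1 alone of the 3 was. Of 5 ubiquitin and E1 genes 0 passed (2 at an unadjusted p under 0.05, 1 by DESeq2).

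Of 24 genes of denervation and the neuromuscular junction 8 fell in double KD, 2 rose and 14 did not pass, with a median of -0.43. Over all genes tested 1.70% fell and 2.39% rose. In the first set 15 of the 24 rose with denervation of WT muscle and 2 fell, beside 17.5% and 16.4% of the genes measured in both sets. The list is one of denervation genes, so these rises are not an independent result. Musk, the receptor kinase that organises the postsynaptic membrane, stood at 2367 and 2427 normalised counts in WT con and at 1286, 1260.0 and 1268 in double KD. The 3 double KD libraries were almost equal and far below the controls (-0.91 ± 0.10, adjusted p = 0.00211). Myog, a myogenic transcription factor that activates synaptic genes after denervation, stood at 10381 and 10652 in WT con and at 5811, 5189 and 4784 in double KD, and fell by 1.00 (SE 0.11, adjusted p = 0.00292). Gadd45a, a stress protein that denervation induces in myonuclei, was among the most abundant lower genes, at 71447 and 68348 in WT con and 32149, 30003 and 33474 in double KD. Each double KD library of Myog and Gadd45a lay below both controls (-1.13 ± 0.14 for Gadd45a, adjusted p = 0.00366).

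The other 5 that fell were Hdac4, a transcriptional repressor that denervation induces and that acts upstream of Myog (-0.92 ± 0.14), the myogenic factor Myod1 (-1.11 ± 0.19), the transcription factor Runx1 (-0.82 ± 0.18), the acetylcholine receptor delta subunit Chrnd (-0.57 ± 0.11) and the receptor-clustering protein Rapsn (-0.53 ± 0.10), with adjusted p between 0.0108 and 0.0335. The fetal receptor subunit Chrng and the alpha subunit Chrna1 had values of -0.69 ± 0.20 and -0.49 ± 0.14 and did not pass (adjusted p = 0.0795 and 0.0748). The 2 that rose were Colq, the collagen tail that anchors acetylcholinesterase (82.7 and 96.0 in WT con, 276, 152 and 209 in double KD; 1.20 ± 0.24, adjusted p = 0.027), and the adhesion molecule Ncam1 (0.46 ± 0.11, adjusted p = 0.0453). Of the 8 lower genes 3 were still called without WT con 2 and 5 without double KD 2. Of the 2 higher genes 0 were called without WT con 2, NRF1 KD 2 or double KD 3, and 1 without double KD 1, double KD 2, NRF1 KD 1 or NRF1 KD 3.

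The direction of the called genes with denervation was read in the first set, whose libraries the comparison does not use. Against innervated WT muscle, 16.5% of the 16146 genes tested there rose in 10 d denervated WT muscle and 15.8% fell. Among genes measured in both sets, 2541 of 14511 rose (17.5%) and 2382 fell (16.4%). Of 263 genes lower in double KD, 135 rose with denervation (51.3%) and 25 fell (9.51%). Of 356 genes higher in double KD, 84 rose (23.6%) and 70 fell (19.7%). The labels do not number the columns of the first set, and its libraries are numbered 1 to 3 in each group here in the order of the numbers in the column names. In that set innervated library 2 and denervated WT library 1 stood apart: Myog was at 3.84, 27.3 and 6.28 CPM (counts scaled to a common library total) in innervated libraries 1 to 3 and at 118, 184 and 301 CPM in denervated ones. Without those 2 libraries 158 of 263 lower genes rose. Over single left-out libraries the number ran from 108 to 160. For the higher genes the balance of rises and falls turned with the libraries. Without denervated WT library 1, 41 rose and 81 fell (median -0.04), without innervated library 1, 42 and 50, and without innervated library 3, 35 and 55. Without denervated WT library 2 or 3, 73 and 76 rose and 43 and 46 fell. Of the 33 proteasome genes 24 rose with denervation, with a median of 0.51.

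**Figure D3:**
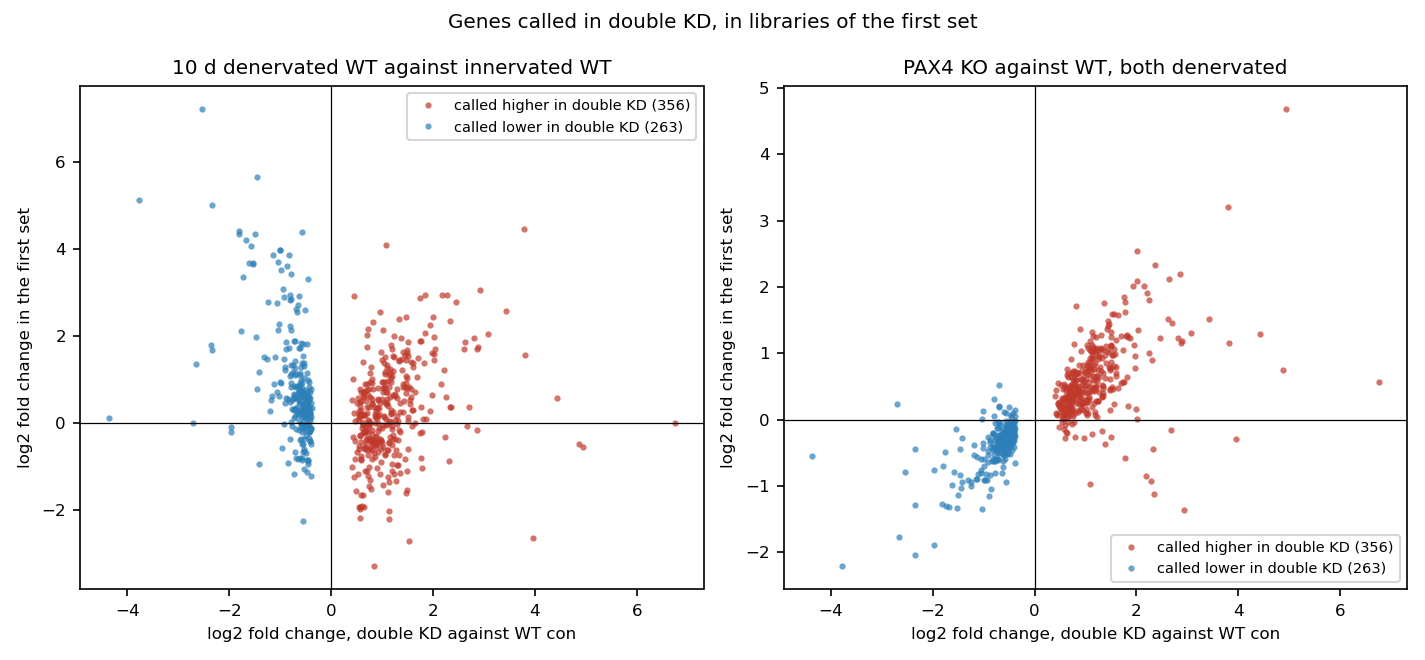
Genes called in double KD, with their log2 fold change against WT con (horizontal axis) and their log2 fold change in the first set (vertical axis), for denervation of WT muscle (left) and for PAX4 KO against WT in denervated muscle (right). Blue points, the 263 genes lower in double KD, lie mostly above 0 on the left. On the right 247 of them lie below 0 and 331 of the 356 red points above it. Both panels use the same denervated WT libraries, with opposite sign, so they are not independent.

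Among 19 genes of IGF, BMP and myostatin signalling, 5 fell and 1 rose, with a median of -0.06. Gdf5, a BMP ligand that denervation induces and that counters atrophy, stood at 2249.5 and 2463 normalised counts in WT con and at 889, 794 and 748 in double KD. The groups were far apart (-1.54 ± 0.12, adjusted p = 0.000584). In the first set Gdf5 rose with denervation (3.67 ± 0.64, edgeR adjusted p = 0.00219). Smad3, which carries the myostatin signal, stood at 3177 and 3944 in WT con and at 2297, 1743 and 2069 in double KD (-0.81 ± 0.13, adjusted p = 0.0133), and Akt1, a kinase downstream of IGF1, fell by 0.54 (adjusted p = 0.0249). The BMP target Id2 and the IGF-binding protein Igfbp5 fell by 1.03 and 0.75 (adjusted p = 0.0249 and 0.043). Igf1 itself rose, from 369 and 416 in WT con to 903, 722 and 602 in double KD (0.90 ± 0.17, adjusted p = 0.0201). Of the 5 lower genes 2 were called without WT con 2, double KD 2 or double KD 3 and 3 without WT con 3, and Igf1 was not called without WT con 2 or double KD 2.

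Among called genes without overlap, with a mean of at least 100 normalised counts and without a provisional symbol (Gm, Rik or clone names), the largest falls were in Fam83d, a protein of the mitotic spindle, at 572 and 409 in WT con and 114, 61.5 and 62.0 in double KD (-2.66 ± 0.30, adjusted p = 0.00292), and in Fam19a5, a secreted chemokine-like protein. Fam19a5 stood at 632 and 719 in WT con and at 263, 113 and 77.2 in double KD, where library 1 was the highest (-2.34 ± 0.39, adjusted p = 0.0134). Next came the potassium channel Kcnk5 (-1.81), the phosphatase regulator Ppp1r27 (-1.76), the carboxylesterase Ces2c (-1.58), Gdf5, the aldehyde oxidase Aox2 (-1.52), Plekhh1 (-1.50) and the TGF-beta-inducible zinc finger factor Klf10 (-1.46). Of these 9 genes all but Klf10 rose with denervation in the first set. Among genes measured in both sets, 51.3% of those lower in double KD and 17.5% of all rose there. Klf10 was at 0.77 ± 0.28 (edgeR adjusted p = 0.0628), and at 0.75 with the replicate number as a block (edgeR adjusted p = 0.00272). For the other 6 of the 15 lowest genes, named below, the change with denervation is not given here. Ppp1r27 was also abundant, at 39556 and 30161 in WT con and 12877, 8128 and 10145 in double KD (adjusted p = 0.00211). The remaining 6 of the 15 lowest by these criteria were S100a8, a calcium-binding protein of neutrophils (-1.45), the transporter Slc16a9 (-1.42), the hyaluronan receptor Stab2 (-1.42), Mtss1l (-1.31), Hpgd, which inactivates prostaglandins (-1.25), and the lipid phosphatase Lpin2 (-1.25). The other most abundant lower genes were Igfn1, a protein of the sarcomere's Z-disc region, which fell by 1.00 (adjusted p = 0.00474), and the kinase Mknk2 (-0.62 ± 0.12).

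Among the genes that rose, a pair stood apart. Esr1, the oestrogen receptor alpha gene (ENSMUSG00000019768, chromosome 10, 4611593 to 5005614, GRCm38), stood at 541 and 459 normalised counts in WT con and at 15181, 14969.8 and 15839 in double KD. The 3 double KD libraries agreed closely, and the log2 fold change was 4.94 ± 0.10 (adjusted p = 2.1e-09). Esr1 stood at 16062, 14107 and 15145 in NRF1 KD, and in the first set at 20.1, 19.5 and 18.4 CPM in denervated WT and at 493, 437 and 566 CPM in PAX4 KO muscle (4.69 ± 0.15, edgeR adjusted p = 2.71e-07). Dpyd, which encodes the first enzyme of pyrimidine breakdown (ENSMUSG00000033308, chromosome 3, 118562129 to 119432924, GRCm38), stood at 139 and 156 in WT con and at 13436, 14519 and 21169 in double KD. Its log2 fold change was 6.76 ± 0.20 (adjusted p = 4.36e-08). Dpyd stood at 19966, 13823 and 14429.7 in NRF1 KD, but its level in PAX4 KO, 5.69, 4.08 and 5.82 CPM, did not differ from the 3.66, 3.78 and 3.06 CPM of denervated WT beyond the test (0.57 ± 0.20, edgeR adjusted p = 0.321). So Esr1 was far above WT in all 3 altered genotypes and Dpyd in the pair labelled with NRF1.

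**Figure D4:**
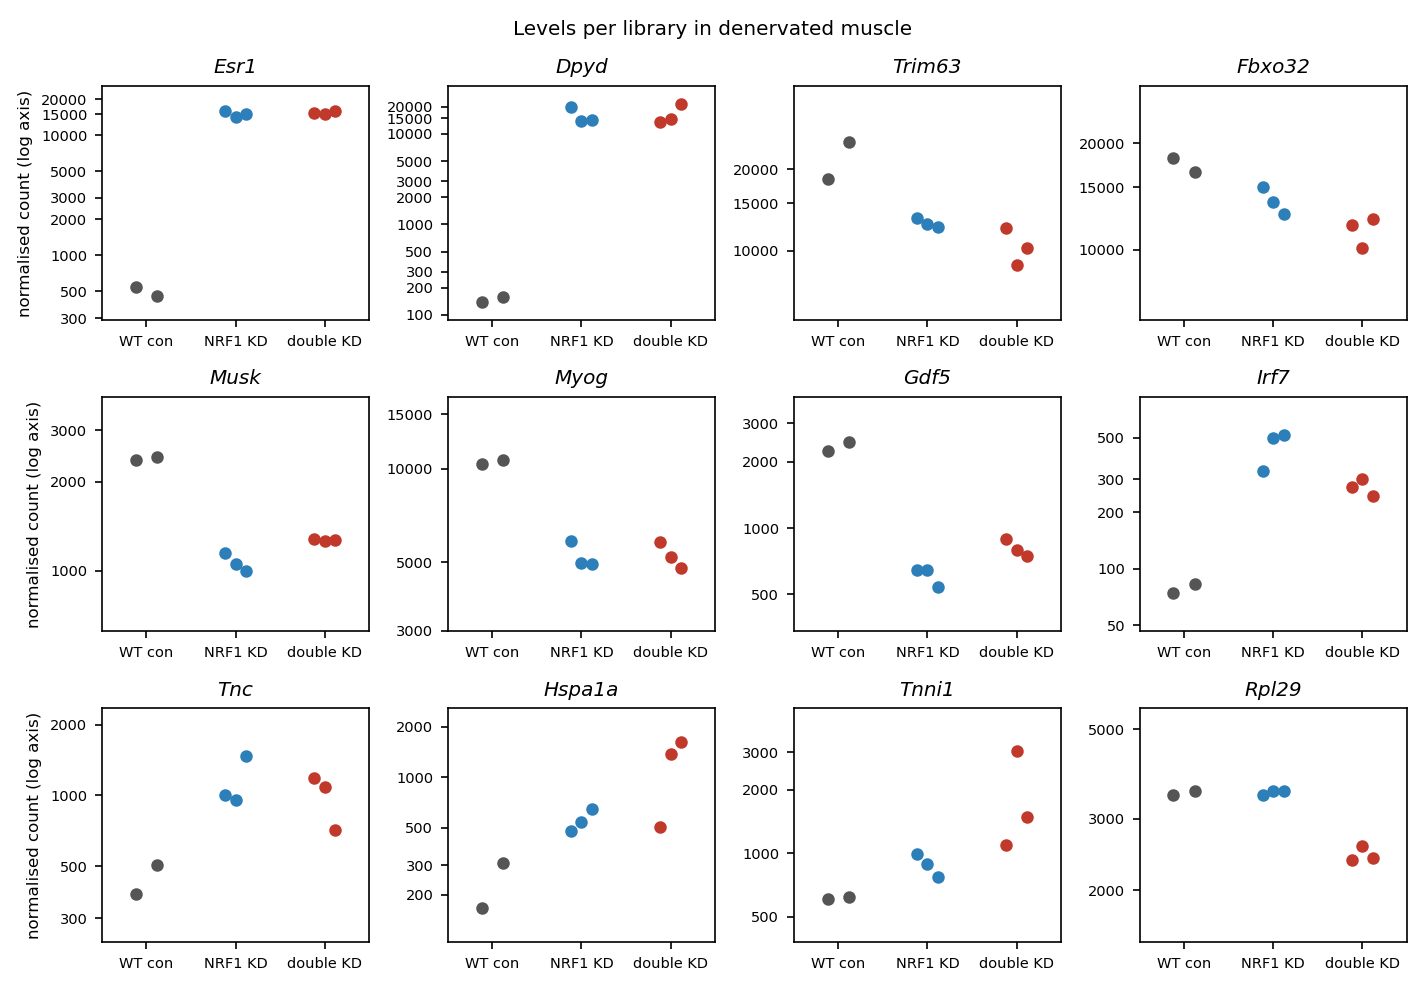
Normalised counts on a log axis (vertical) of 12 genes in the WT con, NRF1 KD and double KD libraries (horizontal), 1 point per library in the order of the library numbers. Esr1 and Dpyd show the widest gaps to WT con, Trim63, Fbxo32, Musk, Myog and Gdf5 lie below it in double KD, and Rpl29 is low in double KD only.

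Of 24 cytosolic chaperone genes 4 rose in double KD and 0 fell, with a median of 0.07. Hspa1a and Hspa1b, near-identical genes of inducible HSP70 whose reads may have been shared between them, were uneven. Hspa1a stood at 167 and 310.4 in WT con and at 507, 1368 and 1615 in double KD. Double KD 1 lay well below libraries 2 and 3, though still above both controls (2.19 ± 0.42, adjusted p = 0.0239). Hspa1b had the same order, at 157 and 272 and 444, 1584 and 1464 (2.29 ± 0.45, adjusted p = 0.0252). The small heat shock proteins Hspb3 and Hspb1 rose by 1.02 ± 0.16 and 0.71 ± 0.16 (adjusted p = 0.0112 and 0.0376). Of the 4, 0 were called without WT con 2 and 1 without double KD 2 or 3. B3galt2, a galactosyltransferase, was split in the same way as Hspa1a, at 54.4 and 68.9 in WT con and 157, 470.3 and 409.8 in double KD (2.33 ± 0.41, adjusted p = 0.0164).

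Of 10 slow fibre genes 2 rose in double KD, with a median of 0.43: the calcium buffer Casq2, at 1367 and 2065 in WT con and 3549, 4234 and 5235 in double KD (1.35 ± 0.19, adjusted p = 0.00684), and slow troponin I, Tnni1, at 605 and 618 and 1096, 3038 and 1488 (1.48 ± 0.32, adjusted p = 0.0345). Casq2 also serves cardiac muscle. Tnni1 was led by double KD 2. Of 8 developmental sarcomere genes the perinatal myosin Myh8 and the cardiac actin Actc1 rose (1.02 ± 0.21 and 1.53 ± 0.33, adjusted p = 0.0266 and 0.033), with a median of 0.42. Actc1 stood at 377 and 295 in WT con and at 1511, 687 and 857 in double KD, with library 1 far above the others. Of 15 fast fibre genes 0 passed (3 at an unadjusted p under 0.05, 3 by DESeq2, lower). The 5 most abundant genes that rose were Xirp2, an actin-binding repeat protein (0.66 ± 0.16), the actin nucleator Lmod2 (0.72 ± 0.15), the collagen gene Col3a1 (1.42 ± 0.33), Mustn1 (0.71 ± 0.15) and Lmcd1 (1.22 ± 0.17), with adjusted p between 0.0077 and 0.0485. Casq2 lost its call without WT con 2, and Tnni1 without WT con 2, WT con 3, double KD 3, NRF1 KD 2 or NRF1 KD 3. Myh8 lost it without WT con 3 or double KD 3, and Actc1 without WT con 2, WT con 3 or double KD 3.

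Of 20 interferon-response genes 7 rose in double KD, 0 fell and 13 did not pass, with a median of 0.99. Irf7, the transcription factor that amplifies the interferon response, stood at 74.0 and 82.4 normalised counts in WT con and at 275, 299.9 and 245 in double KD. All 3 double KD libraries lay far above both controls (1.79 ± 0.21, adjusted p = 0.00329). Bst2, which tethers budding virus, stood at 211 and 209.5 in WT con and at 493, 432 and 355 in double KD (1.00 ± 0.17, adjusted p = 0.0157). The RNA sensor Oas2 rose by 1.35 ± 0.25 (adjusted p = 0.0201), and Rtp4, Ifit3, Ifit1 and Isg15 rose by 1.10 to 1.33. Of the 7 genes Irf7 alone was still called without WT con 2 or double KD 2, 3 were without WT con 3, double KD 3, NRF1 KD 2 or NRF1 KD 3, and 4 without double KD 1. Of 13 genes of MHC and antigen presentation 0 passed by limma (2 at an unadjusted p under 0.05, 2 by DESeq2, median 0.37).

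Of 26 extracellular matrix genes 3 rose, with all 26 values above 0 and a median of 0.83. Col3a1, a fibrillar collagen, stood at 6500.4 and 10537 in WT con and at 32970.2, 22395 and 14629 in double KD, where the libraries of both groups were spread widely without overlap (1.42 ± 0.33, adjusted p = 0.04). The glycoproteins Tnc and Postn rose by 1.14 ± 0.24 and 1.36 ± 0.32 (adjusted p = 0.0308 and 0.0446). Elastin, Eln, stood at 407 and 955 in WT con and at 2793, 2327 and 1479.5 in double KD (1.77 ± 0.34, adjusted p = 0.023), and the microfibril protein Mfap4 at 187 and 259 and 1258, 918 and 646 (2.04 ± 0.29, adjusted p = 0.00702). Of the 3 called genes none was still called without WT con 2, double KD 1 or double KD 2, 1 (Tnc) was without NRF1 KD 2, and 2 were without NRF1 KD 3 or WT con 3. The whole list gave 8 calls without WT con 3 or double KD 3.

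Of 12 macrophage markers 2 rose, the complement gene C1qa (788 and 986 in WT con, 2522, 1711 and 1550.2 in double KD; 1.09 ± 0.25, adjusted p = 0.0376) and the chemokine receptor gene Cx3cr1 (0.79 ± 0.17, adjusted p = 0.0347), with a median of 0.95. Their summed level was 7995 and 10549 normalised counts in WT con and 14255 to 22648 in double KD, and 0 of the 12 was at 0 in all libraries. Of 8 markers of fibro-adipogenic progenitors 3 rose, Ly6a, Dpt and Mfap5 (median 0.71), and their sum was 11901 and 23422 in WT con and 18606 to 29797 in double KD, so the ranges overlapped. Neutrophil markers split: S100a8 fell, the median of 5 was 1.20 and the sum was 2048 to 2907 in WT con and 736 to 1676 in double KD. Markers of endothelium, smooth muscle and pericytes, adipocytes, Schwann cells, tenocytes, satellite cells, erythroid, T and B cells gave 0 calls by limma, and 1 each by DESeq2 in endothelium, smooth muscle, adipocytes and Schwann cells. At an unadjusted p under 0.05 they gave 1, 2, 1, 3, 0, 0, 0, 1 and 0. In whole muscle, a change in the number of cells of a type and a change in RNA per cell cannot be told apart. Neither C1qa nor Cx3cr1 was called without WT con 2, WT con 3, NRF1 KD 2, double KD 1 or double KD 2. Without NRF1 KD 3 C1qa was not called and without double KD 3 Cx3cr1 was not, while the whole list gave 7 calls without NRF1 KD 1. Of the 3 progenitor genes none was called without WT con 2 or double KD 2, and Ly6a alone was without double KD 1, NRF1 KD 2 or NRF1 KD 3; the whole list gave 5 calls without WT con 3. S100a8 was not called without WT con 2, NRF1 KD 2 or double KD 3. The part of these markers in the matrix and interferon results was not tested. The chemokine gene Ccl12 was also among the 15 highest, at 23.9 and 47.5 in WT con and 167, 98.2 and 114 in double KD (adjusted p = 0.0157). Others of the 15 were Cthrc1 (2.15), coagulation factor X, F10 (2.01), the amino acid transporter Slc6a19 (2.00), Armc2 (1.95) and the coregulator Cited1 (1.76).

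Of 21 alpha-PAL targets and other genes of mitochondrial biogenesis 1 changed, the coactivator Ppargc1b, which rose from 306 and 353 in WT con to 510.0, 643 and 648 in double KD (0.86 ± 0.18, adjusted p = 0.0303). The mitochondrial transcription factor Tfam was at -0.09 ± 0.13 (adjusted p = 0.758), and the list's median was -0.05. Over all genes tested 2.39% rose and 1.70% fell, so 1 or 2 calls in a list say little about the list as a whole. Of 35 nuclear genes of complex I, 32 of complexes III to V, 9 mitochondrially encoded genes, 73 mitochondrial ribosomal proteins and 20 genes of the TCA cycle, 0 changed in limma's test, and the medians lay between -0.05 and 0.09. An unadjusted p under 0.05 was found for 0, 1, 0, 3 and 1 of them, and DESeq2 called 0, 1, 0, 1 and 1. Of 15 genes of fatty acid oxidation 1 fell, the carnitine carrier Slc25a20 (-0.44 ± 0.10, adjusted p = 0.0357). Of 73 cytosolic ribosomal proteins 2 fell, Rpl29 and Rps3a1 (beside 1.70% of all genes), with a median of -0.01. Rpl29 stood at 3432 and 3513 in WT con and at 2376, 2565 and 2406 in double KD (-0.50 ± 0.08, adjusted p = 0.0134), and Rps3a1 at 10960.3 and 9071 and 5462, 5797 and 6966 (-0.72 ± 0.13, adjusted p = 0.0163). Ribosomal protein genes have processed copies with near-identical sequence, so reads may have been divided between them and both values are uncertain. Without WT con 2 neither was called, and without double KD 2 Rpl29 alone was. Ppargc1b was not called without WT con 2, double KD 2 or double KD 3, and Slc25a20 not without WT con 2 or 3, double KD 1 or 2, or NRF1 KD 2.

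Of 17 antioxidant genes the reductase Txnrd1, the transferase Gstm1 and the peroxidase Prdx6 fell (-0.56, -0.50 and -0.41) and Gpx1 rose (0.44), with adjusted p between 0.0237 and 0.0387 (median -0.11). In polyamine metabolism Sat1, which acetylates polyamines for export, and the antizyme inhibitor Azin1 rose (0.71 ± 0.11 and 0.64 ± 0.14, adjusted p = 0.00976 and 0.0306), 2 of 10 genes. The stress factor Ddit3 rose (0.63 ± 0.12, adjusted p = 0.0249), 1 of 20 in its list, and the clock output factor Tef fell (-0.48 ± 0.10, adjusted p = 0.0302), 1 of 14. Over all genes tested 2.39% rose and 1.70% fell, so a single call says little about either list. Without WT con 2 none of these 8 genes was called. Without double KD 2 none of the 4 antioxidant genes was, and Gpx1 was also lost without WT con 3, NRF1 KD 3, double KD 1 or double KD 3, and Prdx6 without WT con 3, NRF1 KD 2, NRF1 KD 3 or double KD 3. Ddit3 was lost without WT con 3, Azin1 without WT con 3 or double KD 2, and Tef without NRF1 KD 2 or any 1 double KD library. Cell cycle genes had a median of 0.91, but 0 of 20 passed by limma, 9 had an unadjusted p under 0.05 and DESeq2 called 3. Genes of glycolysis, endoplasmic reticulum folding and aminoacyl-tRNA synthesis gave 0 calls in 19, 20 and 20 genes by limma, 3, 4 and 4 unadjusted, and 3 each by DESeq2.

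**Figure D5:**
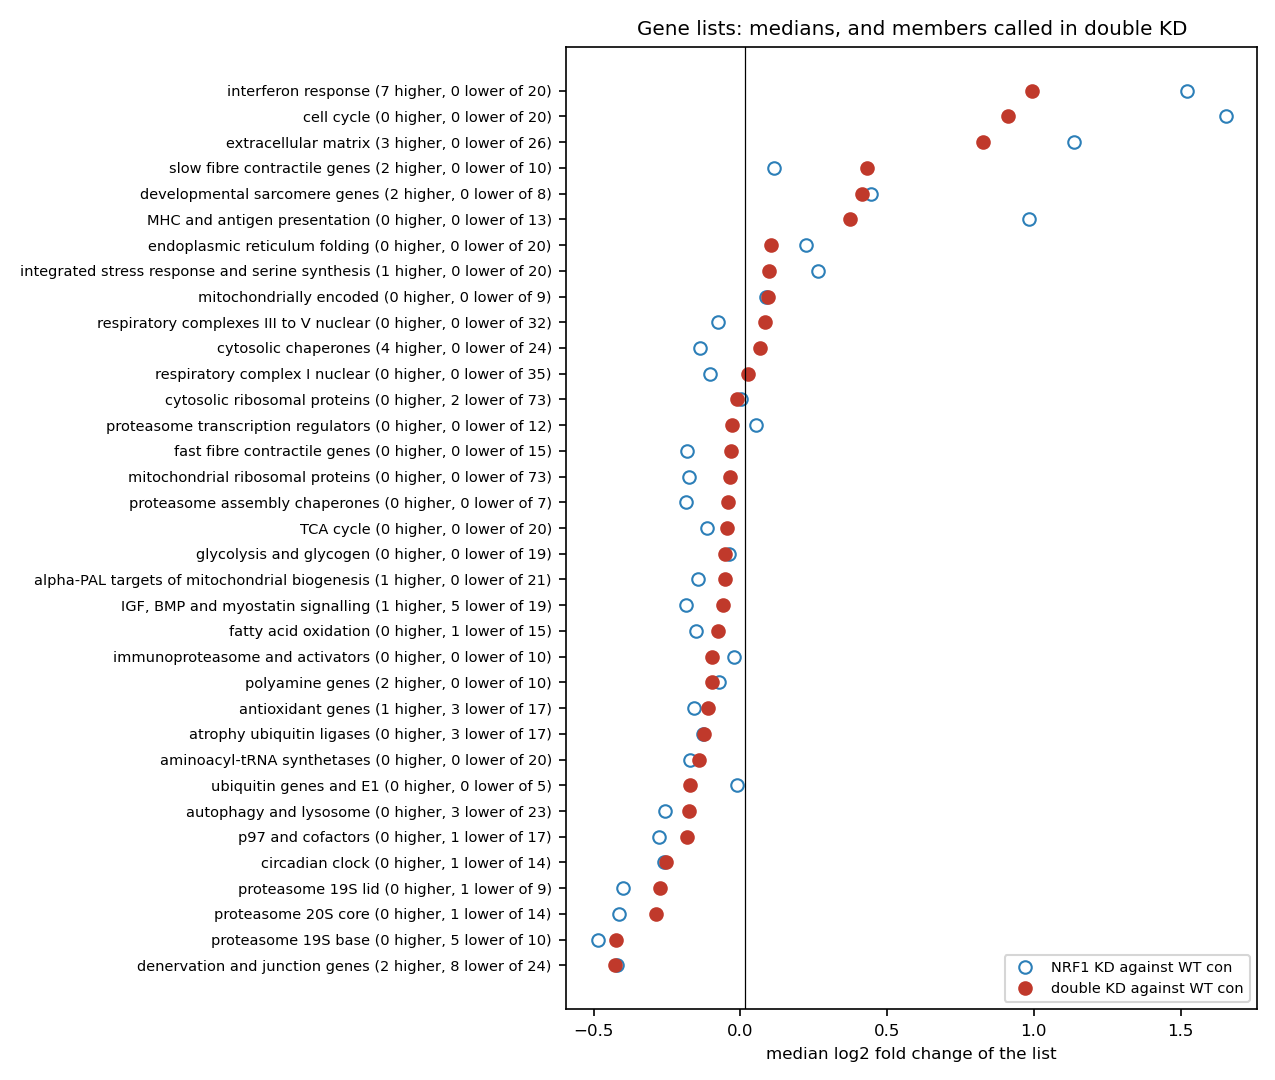
Median log2 fold change against WT con (horizontal axis) of each function list (rows), for double KD (red) and NRF1 KD (open blue), which share the WT con libraries. The row labels count the members called in double KD; denervation and junction genes lie lowest in double KD (-0.43) and interferon-response genes highest (0.99), and the vertical line is the median of all genes (0.02).

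The addition of PAX4 to NRF1 in the label was read from double KD against NRF1 KD, a comparison in which WT con served only for the estimate of spread. In it 12 of 15624 genes were higher in double KD (0.0768%) and 9 lower (0.0576%), beside 1756 with an unadjusted p under 0.05. Among the 12 were the 6 genes present in double KD and nearly absent in the other 5 libraries, described under other observations. AC127331.2 and Mrpl48-ps were also among them, and these differed between WT con 2 and WT con 3 as well. Whether such genes reflect the added label or other differences between the libraries was not tested. Ankrd55, an ankyrin repeat protein, stood at 568, 706 and 562 normalised counts in NRF1 KD, at 1316 and 1346 in WT con and at 2722, 2547 and 3274 in double KD. NRF1 KD thus lay below the controls and double KD above them (2.22 ± 0.12 between the knockdown groups, adjusted p = 4.58e-05). The other genes that met the naming rule were Hddc3, a nucleotide hydrolase (2.01 ± 0.26), and the methyltransferase gene Hemk1 (0.76 ± 0.10), both higher in double KD, and Plac8 (-1.59 ± 0.25), Tpbgl (-1.19 ± 0.17), the myosin gene Myo7a (-0.88 ± 0.13) and Rpl29 (-0.51 ± 0.08), all lower, with adjusted p between 0.0168 and 0.0465. Rpl29 stood at 3439, 3514 and 3524 in NRF1 KD, level with WT con. The counts moved when libraries were left out, from 1 to 69 higher and from 0 to 124 lower. Without NRF1 KD 1 they were 20 and 124, without NRF1 KD 2 9 and 0, without NRF1 KD 3 6 and 1, without double KD 1 69 and 89, without double KD 2 1 and 1, without double KD 3 1 and 0, without WT con 2 46 and 34 and without WT con 3 46 and 38.

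For the proteasome, 0 of 33 genes differed between double KD and NRF1 KD by limma, 4 had an unadjusted p under 0.05, and 30 of 33 values were higher in double KD (median 0.11). The 95% intervals of the 33 differences lay between -0.85 and 0.53. Against the same WT con libraries, 26 of the 33 genes fell in NRF1 KD (median -0.44; 3.72% of all genes fell in that comparison and 11.3% changed in either direction) and 7 in double KD (median -0.32). The difference for Psmc2 between the knockdown groups was 0.06 ± 0.10 (95% interval -0.17 to 0.28), for Trim63 -0.29 ± 0.14 (-0.60 to 0.02), for Musk 0.25 ± 0.09 (0.06 to 0.44) and for Irf7 -0.69 ± 0.19 (-1.10 to -0.28); none of these 4 passed after adjustment over all genes. Of the interferon list 13 of 20 rose in NRF1 KD (median 1.52) and of the matrix list 14 of 26 (median 1.14; 7.58% of all genes rose in that comparison), beside 7 and 3 in double KD, and 0 genes of either list differed between the knockdown groups (medians -0.49 and -0.21).

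PAX4 KO against WT, both denervated, in the first set had 3 genes higher (0.0186%) and 0 lower (0.00%) of 16146 by edgeR, with 1983 of the 14511 genes of both sets at an unadjusted p under 0.05, and DESeq2 called 127 and 65. Its values for the genes called in double KD were mostly on the same side of 0. Of the 263 genes lower in double KD, 247 were below 0 in PAX4 KO (93.9%), with a median of -0.34. Of the 356 genes higher in double KD, 331 were above 0 (93.0%), with a median of 0.51, beside 51.1% above 0 and a median of 0.01 over all 14511 genes. Over single left-out libraries of the first set the numbers on that side ran from 234 to 253 and from 314 to 347. All 33 proteasome genes were below 0 in PAX4 KO, with a median of -0.19, and 0 passed. The PAX4 KO values and the changes with denervation given above share the same denervated WT libraries, which enter them with opposite sign. A shift in those libraries alone would move both in opposite directions, so the 2 results are not independent. Trim63 stood at 255, 630.2 and 607 CPM in denervated WT and at 307, 303 and 242 CPM in PAX4 KO, where denervated WT library 1 lay within the range of PAX4 KO (-0.81 ± 0.29, edgeR adjusted p = 0.323). Gadd45a stood at 257, 657 and 589 CPM and at 284, 285 and 243 CPM, with the same library apart (-0.89 ± 0.50, edgeR adjusted p = 0.464).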

How the data were processed

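RNA was measured by sequencing of denervated mouse muscle. For WT con, NRF1 KD and double KD the authors deposited variance-stabilised log2 values for 15624 genes, with the mean normalised count (signal), log2 fold change, test score, p-value and adjusted p-value of their own comparison, and for the first set raw counts per gene. Genome builds GRCm38 and mm10 are named in the submitters' processing notes; for the aligner, counter, annotation and strand setting, nothing is given in the sources used here. The log2 values were turned back into normalised counts (their means differ from the deposited mean by at most 3.34e-07%), and multiplication by recovered size factors gave reads that were whole within 0.05 for 100.0% of values. Symbols came from the count table for 15526 genes and from GENCODE for 72; 26 had none. The log2 of the normalised count plus 1 was fitted with limma 3.58.1 in R 4.3.3, with trend, over all 8 libraries, and p-values were adjusted over all genes. First-set counts, 21716216 to 42821396 per library, were tested with edgeR 4.0.16 (quasi-likelihood, TMM scaling, its filter on low counts). Alternatives were DESeq2 1.42.0, edgeR on recovered reads, other scalings, pseudocounts of 0.1 and 5, filters, a replicate block and leaving out each library. In the first set the innervated and denervated WT columns share numbers in their names. Deviations of same-numbered libraries from their group means correlated at 0.282, 0.119 and 0.433, and those of other pairs at -0.367 to 0.055, so the numbers were taken to pair the libraries. On simulated data for double KD against WT con, with 15624 genes, limma called 5 of 50 genes changed by 0.5 on the log2 scale, 32 of 50 changed by 1, 44 of 50 by 1.5 and 45 of 50 by 2, and 12 unchanged genes.

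Members and gene lists were chosen with earlier results of these data known. The text names 8 genes always (among them Nrf1, Psmc2, Trim63 and Esr1), the 15 highest and 15 lowest called genes without overlap whose mean was 100 normalised counts or more, without provisional symbols (Gm, Rik or clone names), the 5 most abundant in each direction, and up to 3 genes per list and direction; against NRF1 KD the 5 highest and lowest. Other genes named were chosen after their values were seen. A result that the rule would name is not reported here. WT con 1 and the other libraries of the series without a column in these tables were not analysed here.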

Additional observations from a re-analysis of the deposited data

Results flagged for a closer look

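By limma's test of double KD against NRF1 KD, 7 genes that met the naming rule differed at an adjusted p under 0.05. The rule asked for no provisional symbol and a mean of 100 normalised counts or more. WT con served only for the estimate of spread. Double KD was above NRF1 KD by 2.22 on the log2 scale for Ankrd55 (adjusted p = 4.58e-05), by 2.01 for Hddc3 (adjusted p = 0.0168) and by 0.76 for Hemk1 (adjusted p = 0.0221). The difference was -1.59 for Plac8 (adjusted p = 0.0465), -1.19 for Tpbgl (adjusted p = 0.0305), -0.88 for Myo7a (adjusted p = 0.0436) and -0.51 for Rpl29 (adjusted p = 0.0347). In all 7 the 3 double KD libraries lay on the same side of all 3 NRF1 KD libraries, but the naming rule required this. Hddc3 stood at 453 and 1049 in WT con, 311, 285 and 302 in NRF1 KD and 966, 1257 and 1445 in double KD. Groups of 2 and 3 libraries are too small for a test of single outlying libraries.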

How the results depend on the processing

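In double KD against WT con (373 genes higher, 265 lower), DESeq2 gave 824 and 584, the 2 groups alone 146 and 85, a minimum change of 1 gave 209 and 45, and the deposited variance-stabilised values 241 higher. Leaving out 1 library gave 46 to 474 higher and 40 to 248 lower. For the proteasome list, in which 7 genes fell, the counts were 14 by DESeq2, 0 with the 2 groups alone and 0 to 5 with 1 library left out. In double KD against NRF1 KD (12 higher, 9 lower), DESeq2 gave 120 and 269, the 2 groups alone 45 and 34, a mean of at least 100 gave 1 and 0, a pseudocount of 0.1 gave 1 and 0, and leaving out 1 library 1 to 69 and 0 to 124. In PAX4 KO against WT (3 higher, 0 lower), DESeq2 gave 127 and 65, no filter on low counts 348 and 108, and leaving out 1 library 1 to 16 and 0 to 10; without denervated WT library 1 they were 16 and 10. Without both that library and innervated library 2, a choice made after seeing the data, they were 105 and 64. For denervation (2661 higher, 2549 lower) leaving out libraries gave 1741 to 2701 and 1768 to 2618. The cause of these moves was not tested, beyond the smaller number of libraries or genes where some were left out. Of 86 called genes of the naming rule, 18 stayed called in every alternative. None turned direction, which a left-out library could not bring about in genes without overlap. DESeq2 called 86 of them, edgeR 79, TMM scaling 84 and the 2 groups alone 37. Of the named genes that did not pass, Nedd4 (0.02) ran from -0.0289 to 0.112 with 1 library left out, below 0 without WT con 3 (-0.0021), double KD 2 or double KD 3 (-0.0226). TMM scaling moved the median of all genes by 0.03.

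With the replicate number as a block, the counts were 80 higher and 56 lower against WT con, 0 of the proteasome genes, and 7 and 2 against NRF1 KD, and 32 of the 86 genes were still called. The labels do not say that a number pairs libraries, and in this table the deviations of same-numbered libraries correlated at -0.453 to 0.373, so the block is a number only. For denervation in the first set the main test used no pairing. The innervated and denervated WT columns there share numbers that were taken to pair them, which no label states, and the block gave 2538 and 2496. With it 139 of 260 genes lower in double KD rose with denervation and 26 fell, and 94 of 343 higher genes rose and 79 fell. Of the 9 lowest named genes the block changed 1 call, that of Klf10, which then passed. With 2 WT con libraries, changes of 0.5 on the log2 scale were seldom called in simulated data (5 of 50), which limits what can be said of genes that did not pass.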

Other observations

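Some genes were present in some libraries and nearly absent in others, by a rule chosen after seeing the data: at least 20 normalised counts in one set of libraries and at least 10 times the value of every other library. In this way 6 genes lay in double KD above the other 5 libraries and 0 below. Ifi44l, an interferon-induced gene, stood at 30.8, 29.1 and 28.3 in double KD and at 0.97 or less elsewhere. Gbp2b, a guanylate-binding protein, stood at 109.9, 64.7 and 111 in double KD, at 1.09 and 3.88 in WT con and at 0, 5.37 and 0.836 in NRF1 KD. In the first set it also varied between WT libraries, at 9.01, 0.713 and 5.37 CPM in innervated WT and 6.89, 0.0839 and 3.53 CPM in denervated WT. Hmga1b stood at 52.8, 61.5 and 59.8 in double KD against 0.96 or less.

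In 10 genes double KD 2 and 3 lay above the other 6 libraries, double KD 1 among these, and in 0 genes did double KD 1 and 2, or 1 and 3, do so. The MHC class I gene H2-Q2 stood at 0, 71.2 and 67.4 in double KD and at 0.96 or less in the other groups, and the pseudogene H2-Ea-ps at 0, 45.3 and 42.4 and at 0 in the other groups. In 13 genes WT con 3 and double KD lay above WT con 2 and NRF1 KD, and in 0 genes the reverse held. Gm3375 stood at 1.09 and 829 in WT con 2 and 3, at 690.2, 630.0 and 709 in double KD and at 2.88, 2.68 and 1.67 in NRF1 KD. The same count with WT con 2 in the place of WT con 3 was 0 in either direction. Several of these genes are pseudogenes or have near-identical copies, whose reads a counting step can divide, so single values are uncertain.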
